A study of Equus caballus with 18 samples.

Results

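ACTN2 (ENSECAG00000009009) and ACTN3 (ENSECAG00000018961) encode the 2 alpha-actinins of the muscle sarcomere, and they were taken by identifier from the 25239 genes of the count table. The rule used no threshold on their values, but both are among the genes that the study displayed from these libraries and were picked with earlier results known, so their spread and tests are not independent of that choice. MYH1 (ENSECAG00000022909), the gene for myosin heavy chain 2X, was the reference against which both were set. RNA was sequenced from 18 skeletal muscles of 1 male Jeju horse, a breed of Jeju in South Korea, with 1 library per muscle and no treatment. The age of the horse at sampling is not given in the sources used here. The muscles were placed in groups by the anatomy of the muscle that each label names. The proximal forelimb group held the caput longum of the triceps brachii, biceps brachii, infraspinatus and supraspinatus. The proximal hindlimb group held the semitendinosus, gluteus superficialis and the vertebral, middle and caudal parts of the biceps femoris. The distal limb extensors were the extensor digitorum communis and extensor carpi radialis of the forelimb and the extensor digitorum longus and extensor digitorum lateralis of the hindlimb. The girdle and neck group held the rhomboideus, omohyoideus, trapezius and pectoralis, of which the last is labelled pectoralis major but named pectoralis ascendens on the study's map of the sampled muscles. The longissimus thoracis and lumborum was the only trunk muscle and entered no comparison between groups. It is included in the descriptions over all muscles and in those of MYH1.

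Alpha-actinins are antiparallel dimers that cross-link the thin actin filaments of neighbouring sarcomeres at the Z-disc, the plate to which titin, myozenins and many signaling proteins also bind. ACTN2 is present in all fibers of skeletal muscle and in the heart, whereas ACTN3 is restricted to fast fibers. MYH1 is the myosin of the fastest fibers of horse muscle, MYH7 that of slow fibers.

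The libraries held 31395013 to 50508515 counts on genes, and the lowest count of either alpha-actinin in any library was 1780, for ACTN3 in the extensor digitorum lateralis. With 1 library per muscle of 1 animal, the muscles of a group stand in for replicates. Their spread holds the differences between muscles and technical error together, and the p-values below refer to muscles of this horse and not to horses. In whole muscle, fewer fibers of a type and less RNA per fiber cannot be told apart. That each library came from skeletal muscle was checked on fiber myosins, with at least 4880 counts (MYH1) and 29123 counts (MYH7) in every library. This cannot show which muscle was sampled, so the muscle named in each label was not checked. Markers of fat, connective tissue, vessels, nerve, blood cells and satellite cells could not be matched to identifiers and were not analysed here. Levels are given as CPM, counts scaled to a common library total, after TMM normalization, which corrects for differences in composition (factors from 0.809 to 1.44). They are not divided by gene length, so a level of ACTN3 is compared between muscles and never with a level of ACTN2. The genes are paralogs of similar coding sequence, and how reads that fit both were counted is not stated, which makes the share of reads assigned to each uncertain.

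ACTN3 varied widely between muscles, and ACTN2 varied about as much as the median gene. ACTN3 ran from 47.4 CPM in the extensor digitorum lateralis through a median of 344 CPM to 1211 CPM in the longissimus, a 25.5-fold range. ACTN2 ran from 1408 CPM in the omohyoideus through a median of 2268 CPM to 3771 CPM in the extensor digitorum lateralis, a 2.68-fold range. The standard deviation of log2 CPM over the 18 muscles was 1.23 for ACTN3, above that of 98.8% of the 14770 genes that passed the filter on low counts. It was 0.38 for ACTN2, above that of 45.0% of these genes, and the median over all of them was 0.40. The muscle with the least ACTN3 was thus the muscle with the most ACTN2. Across all 18 muscles the log2 CPM of ACTN3 and ACTN2 had a Pearson's r of -0.30 and a Spearman's rho of -0.21, a description over sites of 1 animal that share the scaling of each library.

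In the proximal forelimb, ACTN3 was at 282 CPM in the biceps brachii, 434 in the infraspinatus, 571 in the triceps brachii and 1040 in the supraspinatus (582 ± 327, SD, n = 4). In the proximal hindlimb it was at 340 CPM in the gluteus superficialis, 347 in the caudal, 410 in the middle and 781 in the vertebral part of the biceps femoris, and 915 in the semitendinosus (559 ± 270, SD, n = 5). Both groups covered almost the same range of ACTN3, and each held muscles near the bottom and near the top of it. In the distal limb extensors ACTN3 was at 47.4 CPM in the extensor digitorum lateralis, 126 in the extensor digitorum communis, 187 in the extensor digitorum longus and 395 in the extensor carpi radialis (189 ± 149, SD, n = 4). In the girdle and neck it was at 112 CPM in the omohyoideus, 172 in the rhomboideus, 173 in the trapezius and 312 in the pectoralis (192 ± 85.0, SD, n = 4). The 3 digital extensors and the rhomboideus, omohyoideus and trapezius lay below all 9 proximal limb muscles, while the extensor carpi radialis and the pectoralis lay inside the proximal range.

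ACTN2 in the proximal forelimb was at 1921 CPM in the biceps brachii, 2050 in the supraspinatus, 2627 in the infraspinatus and 2699 in the triceps brachii (2324 ± 396, SD, n = 4). In the proximal hindlimb it was at 1485 CPM in the gluteus superficialis, 1684 in the vertebral, 1916 in the middle and 2430 in the caudal part of the biceps femoris, and 2354 in the semitendinosus (1974 ± 412, SD, n = 5). These ranges overlapped over most of their length. The distal limb extensors had 1955 CPM of ACTN2 in the extensor carpi radialis, 2182 in the extensor digitorum longus, 2900 in the extensor digitorum communis and 3771 in the extensor digitorum lateralis (2702 ± 819, SD, n = 4). The girdle and neck muscles had 1408 CPM in the omohyoideus, 2045 in the pectoralis, 3020 in the rhomboideus and 3035 in the trapezius (2377 ± 795, SD, n = 4), and the longissimus had 2592 CPM. The 4 groups of several muscles all overlapped one another in ACTN2, while the longissimus lay above every proximal hindlimb muscle. The 2 highest values outside the extensor digitorum lateralis were in the trapezius and rhomboideus.

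**Figure D1:**
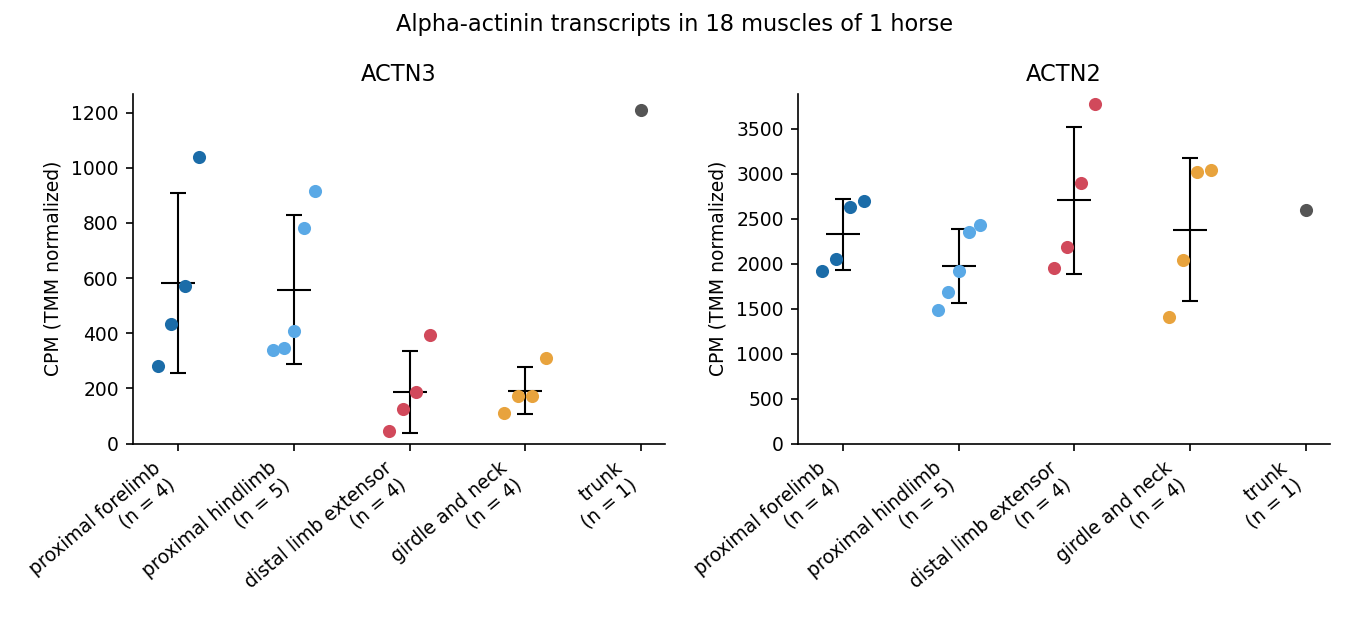
Each point is 1 muscle, placed by anatomical group on the x axis and by CPM (TMM normalized, linear axis from 0) on the y axis, with ACTN3 on the left and ACTN2 on the right; black bars give the mean and SD, and the trunk is 1 muscle. ACTN3 was lowest in distal limb extensors and in girdle and neck muscles (means 189 and 192 CPM against 582 and 559 CPM in proximal groups). The 4 groups of several muscles overlapped in ACTN2.

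The ratio of ACTN3 to ACTN2 counts in each library was taken next, since it needs no library size or scaling. It is expressed as ACTN3 counts per 100 ACTN2 counts and, without a correction for gene length, orders the muscles but does not give the proportion of both transcripts. The ratio had a median of 15.9 per 100 and a 40.4-fold range. It was lowest in the extensor digitorum lateralis, at 1.26 per 100 (exact 95% binomial interval from 1.20 to 1.32), where 1780 counts of ACTN3 stood against 141622 of ACTN2. It was highest in the supraspinatus, at 50.7 per 100 (50.1 to 51.3), where 39553 counts stood against 77977. The intervals cover counting error only, since no molecular identifiers were used and several reads can come from 1 molecule.

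From the bottom, the extensor digitorum lateralis was followed by the extensor digitorum communis at 4.34, the rhomboideus at 5.69, the trapezius at 5.71, the omohyoideus at 7.93 and the extensor digitorum longus at 8.55 ACTN3 counts per 100 ACTN2 counts. These 6 lowest muscles were 3 digital extensors and 3 muscles of the girdle and neck. A middle set held the caudal biceps femoris at 14.3, biceps brachii at 14.7, pectoralis at 15.3, infraspinatus at 16.5, extensor carpi radialis at 20.2, triceps brachii at 21.2, middle biceps femoris at 21.4 and gluteus superficialis at 22.9 per 100. The top held the semitendinosus at 38.9, vertebral biceps femoris at 46.4, longissimus at 46.7 and supraspinatus at 50.7 per 100. No anatomical group made up the whole top, which took in forelimb, hindlimb and trunk.

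Of the 17 steps between neighbours in this order, 4 had overlapping counting intervals, namely those from rhomboideus to trapezius, caudal biceps femoris to biceps brachii, triceps brachii to middle biceps femoris and vertebral biceps femoris to longissimus. A wider yardstick is given by the 3 parts of the biceps femoris, sampled from 1 muscle. Their ratios of 14.3 (caudal), 21.4 (middle) and 46.4 (vertebral) per 100 differed 3.24-fold, with an SD of 0.86 for the log2 ratio, against 1.39 over all 18 muscles. Within this muscle ACTN3 differed 2.25-fold and ACTN2 1.44-fold, in opposite order. Only 1 of the 17 steps was larger than that SD, the one of 1.79 on the log2 scale from the extensor digitorum lateralis to the extensor digitorum communis. Steps between neighbours of a sorted list are small by construction, so this count says only that single places in the order are not resolved beyond the spread within the biceps femoris.

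**Figure D2:**
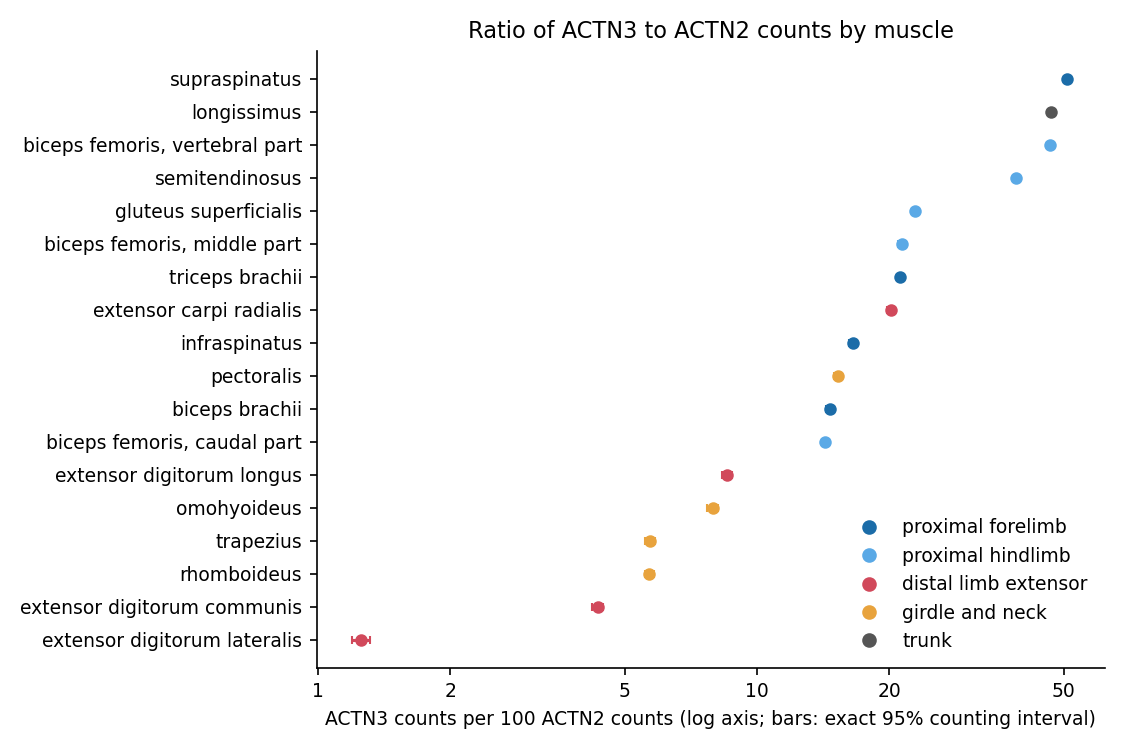
ACTN3 counts per 100 ACTN2 counts (x axis, log scale) in each of the 18 muscles (y axis, in ascending order), coloured by anatomical group, with exact 95% binomial counting intervals that are mostly narrower than the points. The extensor digitorum lateralis stands lowest at 1.26 per 100, 6 muscles lie below 10 per 100 and 4 lie between 38.9 and 50.7 per 100.

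The ratio varied mainly with ACTN3. Split by covariance on the log2 scale, 85.5% of the variance of the ratio over the 18 muscles came from ACTN3 and the rest from ACTN2.

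Whether the anatomical groups differed was tested with edgeR's quasi-likelihood test over all genes, with p-values adjusted by Benjamini-Hochberg. In a test of any difference among the 4 groups, 1534 of 14770 genes were called at an adjusted p below 0.05 (10.4%). ACTN3 was among them, just inside the threshold (adjusted p = 0.0485, edgeR), and ACTN2 was not (adjusted p = 0.595, edgeR). The call of ACTN3 held in 4 of 17 fits that left out 1 muscle (without the extensor carpi radialis, pectoralis, biceps brachii or caudal biceps femoris) and was lost in the other 13, where the adjusted p reached 0.0851 (edgeR). It was lost too when the biceps femoris parts were summed to 1 sample (adjusted p = 0.0619, edgeR).

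Distal limb extensors were then compared with proximal limb muscles, which asks whether muscles that move the digits and carpus differ from those around the shoulder and hip. Every distal muscle was an extensor, so position on the limb and the role of an extensor cannot be told apart. ACTN3 was lower in distal extensors, at 189 ± 149 CPM (SD, n = 4) against 569 ± 277 CPM (SD, n = 9), with a log2FC of -1.60 (SE 0.49, adjusted p = 0.0328, edgeR). ACTN2 was at 2702 ± 819 against 2129 ± 421 CPM, with a log2FC of 0.34 (SE 0.25, adjusted p = 0.371, edgeR), which did not pass. The log2FC of ACTN2 was 0.13 without the extensor digitorum lateralis and 0.46 without the extensor carpi radialis, the ends of its range with 1 muscle left out. A call here needed an adjusted p under 0.05 together with a log2FC beyond 0.58 in either direction, which 1645 genes met (11.1%), 919 of them higher (6.22%) and 726 lower (4.92%) in distal extensors. The alpha-actinin family has 4 genes, of which the non-muscle ACTN1 and ACTN4 could not be matched to an identifier and were not analysed here.

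The call of ACTN3 rested on single muscles. Its log2FC was between -2.25 and -1.27 when 1 muscle was left out, and lower in distal extensors each time. The adjusted p (edgeR) was 0.105 without the extensor digitorum lateralis, 0.0769 without the extensor digitorum communis, 0.0742 without the extensor digitorum longus, 0.0614 without the supraspinatus and 0.0517 without the semitendinosus, all above the threshold. Without the extensor carpi radialis, whose MYH1 stood apart from that of the other extensors, it was 0.0081. The call held in the other 11 fits that left out 1 muscle.

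The ratio of ACTN3 to ACTN2 was lower in distal extensors as well. Its log2 value averaged -4.17 ± 1.69 (SD, n = 4) in distal extensors and -2.02 ± 0.70 (SD, n = 9) in proximal limb muscles, a difference of -2.15 (SE 0.88), or a 4.44-fold lower ratio. An exact two-sided permutation test over all 715 assignments gave p = 0.0112, and p = 0.0336 after adjustment over the 3 comparisons of the ratio. The ratio was below that of all 9 proximal muscles in 3 of 4 extensors, and the extensor carpi radialis, at 20.2 per 100, lay inside the proximal range of 14.3 to 50.7 per 100. The adjusted p of the exact permutation test became 0.0857 without the extensor digitorum communis, longus or lateralis, and 0.0545 with the biceps femoris parts summed. Without the lateralis the difference itself was -1.44, and without the extensor carpi radialis it was -2.77 (adjusted p = 0.0273, exact permutation test).

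The extensors of the limbs were set against each other by the interaction of limb and position, which tests whether the distal-proximal difference is the same in the forelimb and in the hindlimb. It rested on 2 distal muscles per limb, all of them extensors. For ACTN3 the interaction was 1.09 on the log2 scale (SE 0.86, unadjusted p = 0.221, edgeR) and for ACTN2 -0.53 (SE 0.51, unadjusted p = 0.312, edgeR), neither of which was called. No gene of 14770 was called (0%), and 369 had an unadjusted p below 0.05. Leaving out the extensor carpi radialis or other single muscles moved the ACTN3 value between 0.05 and 2.40. The ACTN2 value moved between -0.87 without the extensor digitorum longus and -0.08 without the extensor digitorum lateralis, so neither size could be fixed with these muscles.

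The proximal forelimb and the proximal hindlimb were compared to ask whether position along the body goes with the alpha-actinins. ACTN3 had a log2FC of 0.06 (SE 0.50, adjusted p = 0.973, edgeR) and ACTN2 of 0.24 (SE 0.28, adjusted p = 0.753, edgeR). The log2 ratio averaged -2.15 ± 0.81 (SD, n = 4) in the forelimb and -1.93 ± 0.69 (SD, n = 5) in the hindlimb, a difference of -0.22 (SE 0.51, exact two-sided permutation test, p = 0.698, adjusted p = 0.698). With 1 muscle left out it ran from -0.61 without the supraspinatus to -0.01 without the biceps brachii. No gene was called by edgeR (0%), 1914 had an unadjusted p below 0.05, and DESeq2 called 65. The small difference of ACTN3 changed its sign between fits, from -0.38 without the supraspinatus to 0.31 at the other end.

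Girdle and neck muscles were compared with the intrinsic muscles of the proximal forelimb. ACTN3 had a log2FC of -1.60 (SE 0.54), the same size as in distal extensors, but it did not pass (unadjusted p = 0.0080, adjusted p = 0.515, edgeR). ACTN2 had a log2FC of 0.03 (SE 0.29, adjusted p = 0.979, edgeR). No gene was called by edgeR (0%), 1345 had an unadjusted p below 0.05 and DESeq2 called 12, which did not include ACTN3 (adjusted p = 0.347, DESeq2). The log2 ratio averaged -3.66 ± 0.67 against -2.15 ± 0.81 (SD, n = 4 each), a difference of -1.51 (SE 0.53), or a 2.85-fold lower ratio. The exact two-sided permutation test gave p = 0.0571 and an adjusted p of 0.0857, where this design can go no lower than an unadjusted 0.0286. The ratio was below all proximal forelimb muscles in 3 of 4 girdle and neck muscles, the exception being the pectoralis at 15.3 per 100.

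The relation of the alpha-actinins to MYH1 was described muscle by muscle. MYH1 covered a 214-fold range and fell into separate sets with a 4.84-fold gap between them. Below the gap were 5 muscles, the rhomboideus (134 CPM), trapezius (165 CPM), omohyoideus (291 CPM), extensor digitorum communis (301 CPM) and extensor digitorum lateralis (481 CPM). Above it were 13 muscles, from the extensor digitorum longus at 2332 CPM through a median of 10947 CPM to the extensor carpi radialis at 28709 CPM. These sets came from MYH1 itself, which is in no label, so the alpha-actinins in them are described and not tested.

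ACTN3 lay between 47.4 and 173 CPM (median 126) in the 5 muscles low in MYH1 and between 187 and 1211 CPM (median 410) in the other 13, without overlap. The ratio lay between 1.26 and 7.93 (median 5.69) against 8.55 and 50.7 (median 21.2) ACTN3 counts per 100 ACTN2 counts, again without overlap. The step in the ratio between these sets, from omohyoideus to extensor digitorum longus, was only 0.11 on the log2 scale. It was under the SD of 0.86 within the biceps femoris, and a wider step of 0.74 lay above the extensor digitorum longus. ACTN2 overlapped, with 1408 to 3771 CPM (median 3020) against 1485 to 2699 CPM (median 2050), and 4 of the 5 muscles low in MYH1 had more ACTN2 than any of the 13. The omohyoideus was the exception, with the lowest ACTN2 of all muscles.

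Within the 13 muscles above the gap, the log2 ratio had a Pearson's r of 0.56 and a Spearman's rho of 0.55 with log2 CPM of MYH1. For ACTN3 these were 0.63 and 0.69, and for ACTN2 0.28 and 0.09. No r with MYH1 is given over all 18 muscles, since they form 2 sets, nor within the 5 low muscles, which are too few. Leaving out the 2 muscles farthest from the median of MYH1 (extensor digitorum longus and gluteus superficialis) gave an r of 0.46 for the ratio, 0.43 for ACTN3 and -0.07 for ACTN2 over 11 muscles. With 1 muscle left out, r of the ratio ran from 0.36 without the extensor digitorum longus to 0.67 without the extensor carpi radialis, and r of ACTN3 from 0.48 to 0.77 without the same muscles. For ACTN2 it ran from -0.05 without the gluteus superficialis to 0.39 without the extensor carpi radialis. The points are sites of 1 animal and both genes share the scaling of each library, so these values are descriptions.

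The extensor carpi radialis stood apart from this relation. It had the highest MYH1 of all muscles and the lowest MYH7, at 881 CPM, yet its ACTN3 of 395 CPM was close to the median of the set. The gluteus superficialis stood on the other side, with 2565 CPM of MYH1 and a ratio of 22.9 per 100. Within the low set the order was not kept either, as the extensor digitorum lateralis had the most MYH1 and the least ACTN3, and the rhomboideus the least MYH1 and 172 CPM of ACTN3. ACTN3 counts per 100 MYH1 counts ran from 1.37 in the extensor carpi radialis to 128 in the rhomboideus, a 93.3-fold range. They averaged 6.45 ± 0.67 (SD, n = 4) in the proximal forelimb, 6.35 ± 4.09 (SD, n = 5) in the proximal hindlimb, 15.3 ± 18.1 (SD, n = 4) in distal extensors and 68.8 ± 58.0 (SD, n = 4) in the girdle and neck. The distal mean rested on the extensor digitorum communis at 41.9, with the other extensors between 1.37 and 9.84. In the girdle and neck the pectoralis was at 3.08 and the other muscles between 38.4 and 128.

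**Figure D3:**
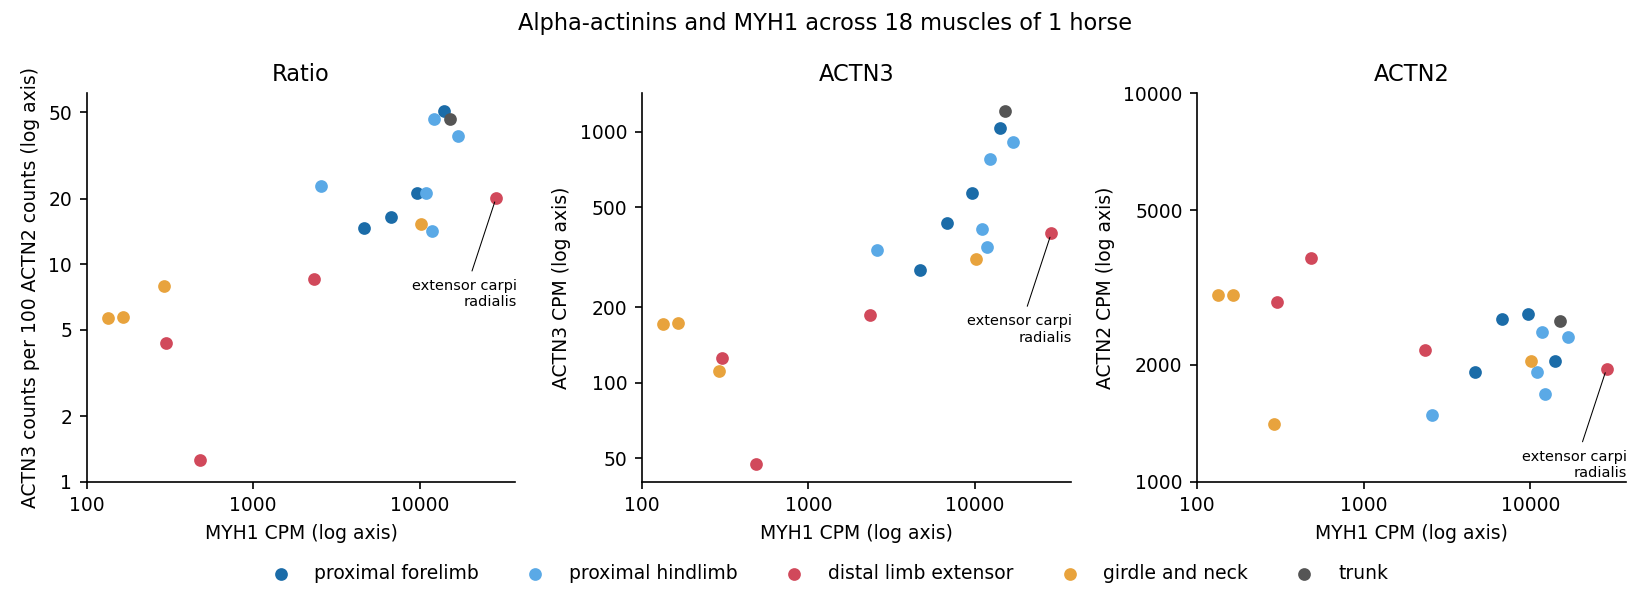
The ratio of ACTN3 to ACTN2 counts, ACTN3 CPM and ACTN2 CPM (y axes, log scale) against MYH1 CPM (x axes, log scale), with 1 point per muscle coloured by anatomical group. A set of 5 muscles at 134 to 481 CPM of MYH1 has the lowest ratios and ACTN3 levels, and the extensor carpi radialis, at 28709 CPM of MYH1, has a ratio of 20.2 per 100 and 395 CPM of ACTN3.

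MYH1 itself was called in none of the group comparisons, and its values there hung on single muscles. In distal extensors against proximal limb muscles MYH1 had a log2FC of -0.30 (SE 1.10, adjusted p = 0.879, edgeR), with the 3 digital extensors at 301, 481 and 2332 CPM and the extensor carpi radialis at 28709 CPM. Without the extensor carpi radialis its log2FC was -3.24 (adjusted p = 0.0864, edgeR). Its standard error was above that of ACTN3, and the difference between the fold changes of both genes was not tested. In girdle and neck against proximal forelimb MYH1 had a log2FC of -1.71 (SE 1.31, adjusted p = 0.697, edgeR), with the pectoralis at 10131 CPM and the other 3 muscles at 134 to 291 CPM. Without the pectoralis it was -5.48 (adjusted p = 0.285, edgeR).

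In a list of 32 genes of alpha-actinin and its partners at the Z-disc, 6 had an identifier with a name, which were ACTN2, ACTN3 and 4 partners, and all 6 were tested. Their median log2FC between distal extensors and proximal limb muscles was -0.13, against -0.02 over all genes, and it includes both alpha-actinins. Of the 4 partners 1 was called, beside 11.1% of all genes. It was FHL3, a LIM domain protein that binds actin and alpha-actinin, lower in distal extensors with a log2FC of -0.89 (SE 0.22, adjusted p = 0.0115, edgeR). FHL3 was at 95.3 CPM in the extensor digitorum lateralis, 129 in the extensor digitorum longus, 133 in the extensor carpi radialis and 150 in the extensor digitorum communis, against 141 to 402 CPM in the proximal limb, so that only the extensor digitorum communis overlapped with it. Its call was lost without the extensor digitorum lateralis (adjusted p = 0.0616, edgeR).

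MYOZ1 and MYOZ2, the myozenins of fast and of slow fibers that tie calcineurin to alpha-actinin, were not called. MYOZ1 had a log2FC of -0.60 (SE 0.27, adjusted p = 0.139, edgeR) and MYOZ2 of 1.72 (SE 0.68, adjusted p = 0.0908, edgeR), with MYOZ2 at 894 CPM in the extensor digitorum lateralis and at 11.97 CPM in the extensor carpi radialis. MYOZ2 passed without the infraspinatus (adjusted p = 0.0453, edgeR) or without the extensor carpi radialis (adjusted p = 0.0208, edgeR), but without the extensor digitorum lateralis its log2FC was 0.47 (adjusted p = 0.716, edgeR). FHL1, another LIM domain protein of muscle, had 0.46 (SE 0.27, adjusted p = 0.259, edgeR) and was not called, with 0.22 without the extensor digitorum lateralis.

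Of 16 genes of fast fibers, 7 had a name (MYH1, MYBPC2, TNNT3, TNNI2, ATP2A1, CASQ1 and MYOM2), and 0 were called in either direction, with a median log2FC of -0.35. With 11.1% of all genes called, lists this short would hold about 1 call or none at the background share, and nothing is read from the counts of this list or of those that follow. ACTN3, at -1.60, was below each of the 7, of which the lowest was MYBPC2, a myosin-binding protein of fast fibers, at -0.57 (SE 0.40, adjusted p = 0.345, edgeR). That order depended on the extensor carpi radialis, without which MYH1, at -3.24, was below ACTN3, at -2.25, and MYBPC2 passed at -1.21 (adjusted p = 0.0438, edgeR). Of 16 genes of slow fibers, 6 had a name (MYH7, MYBPC1, TNNC1, TNNT1, ATP2A2 and CASQ2), and 1 was called, with a median of 0.27. That was CASQ2, the calsequestrin of slow and cardiac fibers, at 2.86 (SE 0.59, adjusted p = 0.0043, edgeR), which was higher in distal extensors. It rested on low counts and on the extensor digitorum lateralis, where it was at 97.7 CPM against 4.08 to 20.5 in the other extensors, and without that muscle its log2FC was 1.27 (adjusted p = 0.118, edgeR). Of 15 genes of glycogen use and glycolysis, 8 had a name, 0 were called and the median was -0.22. These 8 were chosen by the study on the same libraries and are not independent of them.

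In girdle and neck against proximal forelimb muscles the same 7 fast fiber genes had a median log2FC of -1.08, the 6 slow fiber genes 1.05 and the 8 glycolysis genes -0.83, against -0.02 over all genes, with 0 calls. Fast fiber genes moved with 1 muscle left out, TNNI2 (-1.08) between -1.70 and -0.87 and TNNT3 (-1.02) between -1.69 and -0.78. The slow fiber gene TNNC1 (1.06) moved between 0.92 and 1.31. ACTN3 at -1.60 lay between MYH1 at -1.71 and ATP2A1, the calcium pump of fast fibers, at -1.57 (SE 0.47, adjusted p = 0.509, edgeR). ACTN2 was at 0.03, between -0.11 without the trapezius and 0.22 without the omohyoideus.

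**Figure D4:**
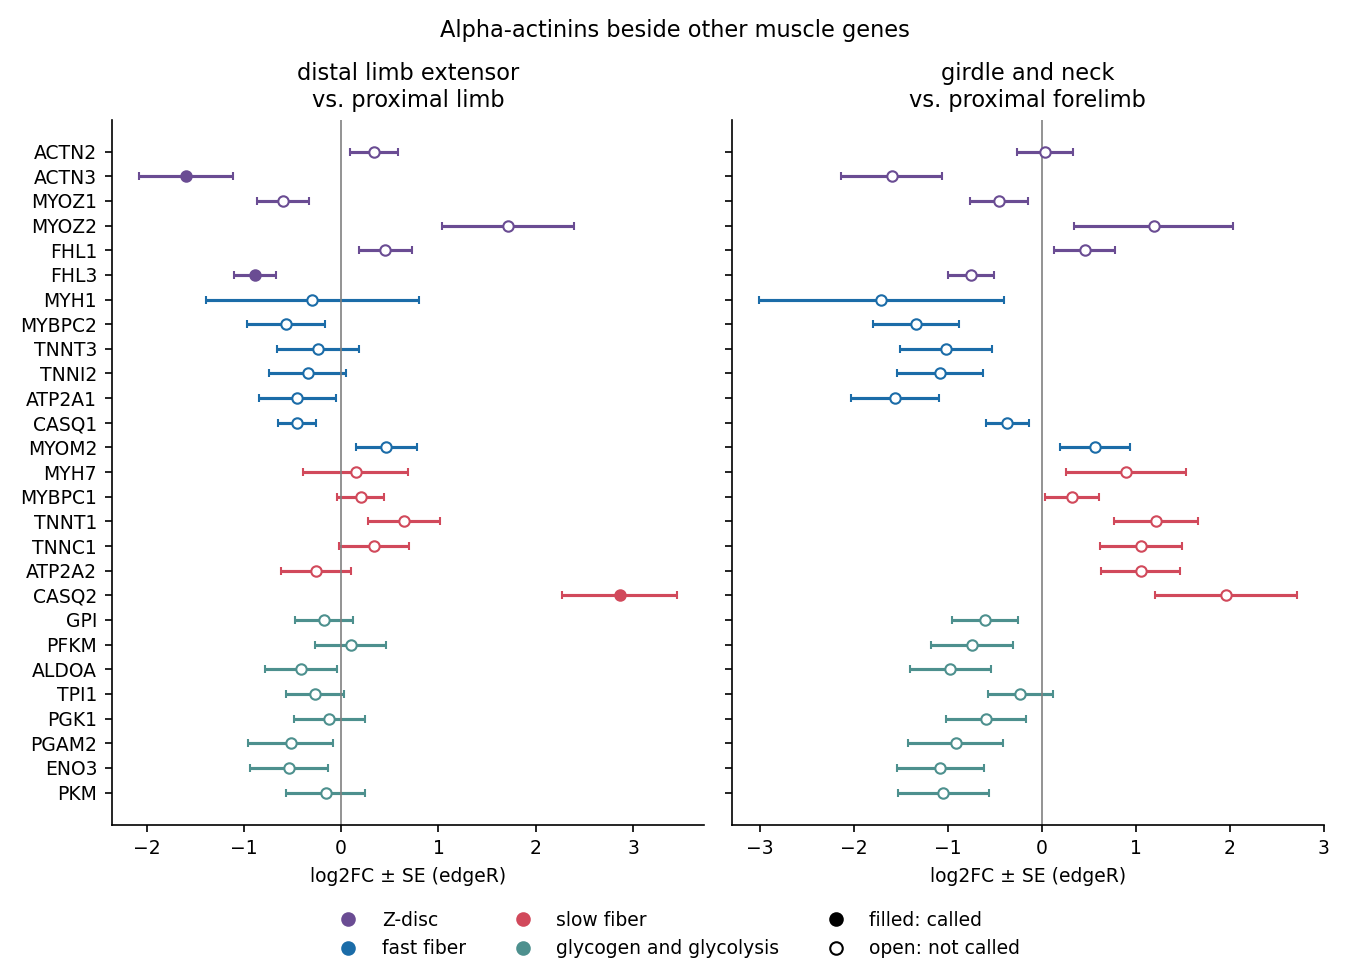
The log2FC from edgeR (x axes, bars are the SE) of named genes (y axis), coloured by list, in distal limb extensors against proximal limb muscles (left) and girdle and neck against proximal forelimb muscles (right); filled points were called. ACTN3 is at -1.60 in both panels and called on the left only, a difference between the panels that was not tested, while ACTN2 is at 0.34 and 0.03.

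The genes whose pattern was most like each alpha-actinin were taken by Pearson's r of log2 CPM over all 18 muscles, among 14769 genes. These values take in the split between the muscles low and high in MYH1 and are descriptions. For ACTN3 the most alike were ENSECAG00000017815 (r = 0.94) and ENSECAG00000024262 (r = 0.94), and the most opposed ENSECAG00000014116 (r = -0.94) and ENSECAG00000010727 (r = -0.90). For ACTN2 they were ENSECAG00000020164 (r = 0.91) and ENSECAG00000014808 (r = 0.90), and ENSECAG00000008351 (r = -0.84) and ENSECAG00000008173 (r = -0.84). For the log2 ratio they were ENSECAG00000009992 (r = 0.93) and ENSECAG00000007789 (r = 0.92), and ENSECAG00000014116 (r = -0.94) and ENSECAG00000023616 (r = -0.91). None of these identifiers had a name.

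Among the genes with a name, which were chosen for mention after their values were seen, ALDOA (r = 0.83, rank 65) and ENO3 (r = 0.82, rank 77), enzymes of glycolysis in muscle, were the most like ACTN3, followed by MYBPC2 (r = 0.81, rank 92). ENO3 was the most like the ratio (r = 0.85, rank 32 of 14768 genes) and CASQ2 the most opposed to it (r = -0.84, rank 36 from the bottom). For ACTN2 the nearest were MYOM1 (r = 0.72, rank 154) and MYOM2 (r = 0.71, rank 177), the myomesins that cross-link myosin at the M-band. MYOM2 was listed among fast fiber genes, but its r with ACTN3 was -0.14. MYH7 had an r of 0.57 with ACTN2 and -0.31 with ACTN3.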

How the data were processed

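The authors removed ribosomal RNA, sequenced paired reads, trimmed them with NGSQCToolkit, aligned them with STAR 2.5.2b in 2 passes to EquCab2 and counted reads per Ensembl gene. They deposited raw counts of 25239 genes in 18 muscles, without normalization. The study reports read counts for more genes than this table holds, and the reason is not given in the sources used here. The strand setting and the treatment of reads that fit several genes are not given in the sources used here. The table had 0 columns of other samples, and every row holds a gene identifier.

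The table gives no gene names. ACTN2, ACTN3 and MYH1 were taken by identifier, and the other named genes were matched to 1 identifier each by equality with counts displayed by the study in 4 muscles (28 named genes in all), so only genes that the study displayed have a name. The study's own muscle clusters were made from these counts and were not used.

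Counts were tested in R 4.3.3 with edgeR 4.0.16 (filterByExpr, TMM, glmQLFit and glmQLFTest, Benjamini-Hochberg over 14770 genes), with all 18 muscles in 5 groups. Calls needed an adjusted p under 0.05 and, in pairwise comparisons, also a log2FC beyond 0.58 in either direction. The SE of a log2FC was its size divided by the square root of F. The distal comparison used the mean of the proximal limb coefficients. Log2 CPM used a prior count of 2. Ratios of counts were compared with exact permutation tests (scipy 1.17.1), and counting intervals are exact at 95%. Alternatives were DESeq2 1.42.0, its size factors, library totals without TMM, other filters, no fold threshold, the biceps femoris parts summed, no trunk muscle, 1 proximal group, and leaving out each muscle. The edgeR fit was tested on simulated data. Named genes were both alpha-actinins, MYH1, list members that were called or set beside them, and the genes with the highest and lowest r. Members, groups and lists were chosen with earlier results of these data known. Figures used matplotlib 3.10.9.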

Additional observations from a re-analysis of the deposited data

Results flagged for a closer look

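MYH1 in the extensor carpi radialis was at 28709 CPM, and the next highest distal limb extensor was at 2332 CPM. The gap was 0.93 of the whole range of the 4 extensors, beyond Dixon's limit for 4 samples. ACTN3 in the same muscle, at 395 CPM, did not pass that limit among the extensors.

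MYH1 in the pectoralis was at 10131 CPM, and the next highest muscle of the girdle and neck was at 291 CPM, a gap of 0.98 of the range. ACTN3 in the pectoralis was at 312 CPM against 173 CPM in the next muscle and did not pass the limit. The ACTN3, ACTN2, MYH1 and log2 ratio values of 4 groups were examined, 16 sets in all. For values near a normal distribution, chance flags about 1 in 20 sets. CPM was taken on the linear scale here, where MYH1 covered a 214-fold range. Whether the flags hold on log2 CPM was not tested.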

How the results depend on the processing

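No paired analysis was possible because all libraries came from 1 horse, with 1 library per muscle. The replicate numbers only name the muscles of a group in order of accession. The direction of ACTN3 and of the ratio in distal extensors against proximal limb muscles was the same in each alternative run. The ACTN3 log2FC was between -1.75 and -1.59 (adjusted p from 0.0119 to 0.0408, edgeR and DESeq2) under 9 alternatives of test, scaling, filter, threshold or grouping. These included 1 that summed the biceps femoris parts and 1 without the trunk muscle. Dropping the fold threshold reuses the main fit, so that alternative could not move either value. With 1 muscle left out the ACTN3 log2FC was between -2.25 and -1.27. The ratio difference was between -2.77 and -1.44 with 1 muscle left out, and -2.18 with the biceps femoris parts summed (exact permutation test, adjusted p = 0.0545). The adjusted p of ACTN3 over 4 groups (edgeR) was between 0.0187 and 0.0851 with 1 muscle left out, and 0.0619 with those parts summed. ACTN2 was called in no fit.

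Genes called over 4 groups numbered 3028 with DESeq2, 348 with library totals alone and 343 (without the extensor digitorum lateralis) to 1823 with 1 muscle left out. They also moved by over 1.5 times without the supraspinatus (879), trapezius (1001) or extensor digitorum longus (769). Distal calls numbered 879 with library totals alone, 306 higher and 573 lower against 919 and 726, and 733 (without the extensor digitorum lateralis) to 1855 with 1 muscle left out. Library totals alone put the median log2FC of all genes at -0.16 in that comparison, -0.15 between the proximal limbs, 0.14 for the girdle and neck and 0.28 for the interaction, against -0.02, 0.01, -0.02 and -0.02 with TMM. DESeq2 called 65 genes between proximal limbs and 12 for the girdle and neck. With 1 muscle left out, the girdle and neck comparison had 0 to 3 calls and the interaction 0 to 1. The r of ACTN3 with MYH1 was 0.41 on linear CPM, and that of ACTN2 was -0.11 with library totals alone, both moving by more than the leave-one-out error of r. The causes were not tested. The lowest count of an alpha-actinin was 1780, and an effect of depth was not tested. Having 1 library per muscle of 1 horse leaves technical error and differences between muscles in 1 spread.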
